A study of Mus musculus with 6 samples.

Results

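Genes of the insulin-like growth factor (IGF) system were followed here in adult mouse alveolar type 2 (AT2) cells, the surfactant-producing stem cells of the alveolus. The 10 genes were taken by symbol from a table of 24421 genes: the ligands *Igf1* and *Igf2*, the receptors *Igf1r* and *Igf2r*, and the binding proteins *Igfbp2* to *Igfbp7*. All 10 passed the filter on low counts, which kept 16723 genes for testing. AT2CTRL cells came from mice of genotype Sftpc-CreERT2/+ with R26-tdTomato/+, and AT2CAB cells from mice of genotype Sftpc-CreERT2/+ with R26-tdTomato/R26-caBmpr1a. The second Rosa26 allele of AT2CAB encodes a constitutively active type I BMP receptor. Mice of both groups therefore carried the tamoxifen-inducible Cre in the surfactant protein C locus and a tdTomato reporter, and both were given tamoxifen before lineage-labeled cells were sorted by FACS. Cre acts in each *Rosa26* allele separately, so a sorted tdTomato-positive cell need not have switched on the active receptor. There were 3 libraries in each group. AT2CTRL replicate 2 and AT2CAB replicate 1 came from mice of 16 weeks and the other 4 libraries from mice of 12 weeks.

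IGF1 and IGF2 are secreted growth factors that signal through the receptor tyrosine kinase IGF1R to insulin receptor substrates, PI3 kinase and AKT. IGF2R has no kinase and carries IGF2 and lysosomal enzymes to the lysosome. The IGF binding proteins are secreted, hold the ligands away from the receptor or deliver them to it, and are released from them by proteases such as PAPPA. In the alveolus, IGFBP2 is widely used as a marker of mature alveolar type 1 (AT1) cells, the flat gas-exchange cells that AT2 cells give rise to.

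Total counts ranged from 21554249 to 28440227 per library. Of 7 direct BMP targets (*Id1*, *Id2*, *Id3*, *Smad6*, *Smad7*, *Smad9* and *Atoh8*), 7 had higher values in all 3 AT2CAB libraries than in any AT2CTRL library and 5 passed the test. *Bmpr1a* itself had a log2 fold change of -0.015 (edgeR adjusted p = 0.983), in a count that does not separate the endogenous gene from the transgene. AT2 markers were summed over 8 genes, with *Sftpc*, *Sftpb* and *Lamp3* at their head, in CPM (counts scaled to a fixed library size). The sum was 94749 to 109393 CPM in AT2CTRL and 88238 to 93763 CPM in AT2CAB, lower in every AT2CAB library. In TPM, a length-scaled measure defined below, the sums overlapped, at 164637 to 192117 in AT2CTRL and 176718 to 186288 in AT2CAB. Levels this high fit the label of the cells. Of the 8 markers, 7 had a log2 fold change below 0 (median of the list -0.27), and 0 passed the test. The summed markers of each other lung cell type were lower, though single markers could be high. *Ager*, an AT1 marker, averaged 1556 CPM in AT2CTRL and 1536 CPM in AT2CAB, above the AT2 marker *Etv5* (1347 and 926.1 CPM). The 7 airway markers summed to 617.3 to 814.6 CPM in AT2CTRL and 594.7 to 811.3 CPM in AT2CAB, mostly from *Scgb1a1*. Of all markers looked at, only *Krt5*, a basal cell keratin, was at 0 in every library. AT2CTRL replicate 1 and AT2CAB replicate 3 held 3935 and 4494 counts on 4 Y-linked genes, and the other 4 libraries held 0.

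The most abundant transcript per length was that of *Igfbp7*, a secreted protein that binds IGFs weakly and lies in vascular basement membranes. Levels of different genes were set side by side as TPM, which divides counts by exon length and scales them to the same total in every library. In AT2CTRL, *Igfbp7* stood at 493.7 ± 101.5 TPM (SD, n = 3), *Igfbp6* at 154.2 ± 23.0 TPM and *Igf2r* at 47.3 ± 15.5 TPM. The ranges of these 3 genes over the libraries did not overlap. Next came *Igfbp2* with 22.4 ± 5.79 TPM, *Igfbp4* with 17.3 ± 2.66 TPM, *Igfbp3* with 10.5 ± 4.31 TPM and *Igfbp5* with 10.2 ± 3.08 TPM, and each of these 4 overlapped its neighbor in the order. The receptor kinase gene *Igf1r* had 3.77 ± 0.665 TPM. The ligands were lowest, *Igf2* with 2.74 ± 0.454 TPM and *Igf1* with 0.932 ± 0.233 TPM. The sorted libraries held far more mRNA for binding proteins than for ligands, with 175.5 to 207.4 TPM of the 6 binding proteins for each TPM of ligand in AT2CTRL and 149.0 to 242.7 in AT2CAB.

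In AT2CAB the same 3 genes led, *Igfbp7* at 697.9 ± 147.0 TPM (SD, n = 3), *Igfbp6* at 96.5 ± 34.9 TPM and *Igf2r* at 53.0 ± 1.26 TPM. *Igf2r* and *Igfbp2* (37.8 ± 18.7 TPM) overlapped in this group, as did *Igfbp2* and *Igfbp4* (27.7 ± 2.28 TPM). *Igfbp5* (18.4 ± 3.86 TPM) overlapped *Igfbp3* (14.6 ± 4.60 TPM), and *Igf1r* (4.94 ± 1.01 TPM) overlapped *Igf2* (3.16 ± 1.07 TPM). *Igf1* was again lowest, at 1.70 ± 0.361 TPM. No single gene was tested between the groups in TPM, since the TPM of all tested genes had a median log2 shift of 0.16 toward AT2CAB. TPM served for the order of genes within a group and for shares and ratios within a library. In CPM, which is not scaled by length, 3 of the 10 genes kept their rank in each group, and the long transcript of *Igf2r* moved to the second place.

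**Figure D1:**
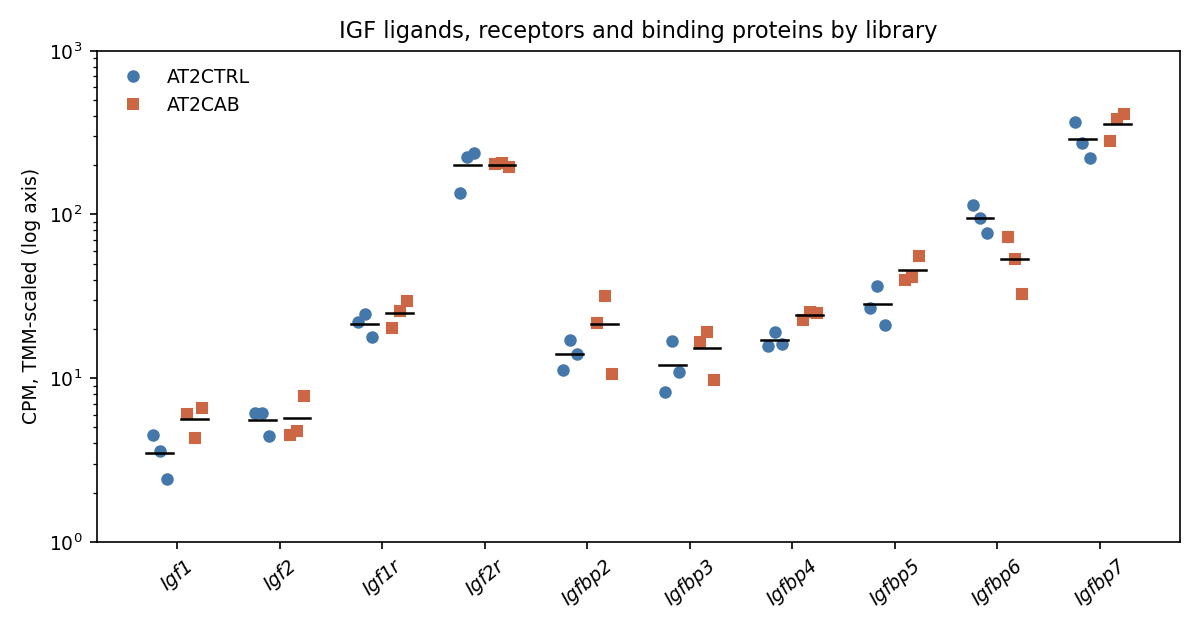
Level of each gene in each library in TMM-scaled CPM on a log axis, with circles for the 3 AT2CTRL libraries, squares for the 3 AT2CAB libraries and a line at each group's mean. The groups do not overlap for *Igfbp4* and *Igfbp5*, which lie higher in AT2CAB, and for *Igfbp6*, which lies lower (53.2 against 95.4 CPM in the mean).

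For the comparison of the groups, values were CPM scaled by TMM and edgeR's quasi-likelihood F statistic gave the p-values, which were adjusted by Benjamini and Hochberg's method over the 16723 genes. None of the 10 genes passed at an adjusted p under 0.05, 0 higher and 0 lower in AT2CAB. Over all tested genes, 0.239% passed with a higher value and 0.012% with a lower value. DESeq2 also called 0 of the 10, where it called 1.45% of its genes higher and 0.644% lower, and limma-voom called 0 of the 10, with 0.161% of all genes higher and 0.00598% lower. At an unadjusted p under 0.05, 2 of the 10 were higher (*Igfbp4* and *Igfbp5*) and 1 was lower (*Igfbp6*), where 4.62% of all genes were higher and 5.05% lower. The same 2 and 1 genes were those whose groups did not overlap, beside 7% of all genes with every AT2CAB value higher and 10.1% with every AT2CAB value lower. The log2 fold change was above 0 for 9 of the 10, with a median of 0.32 beside -0.0096 over all genes tested.

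**Figure D2:**
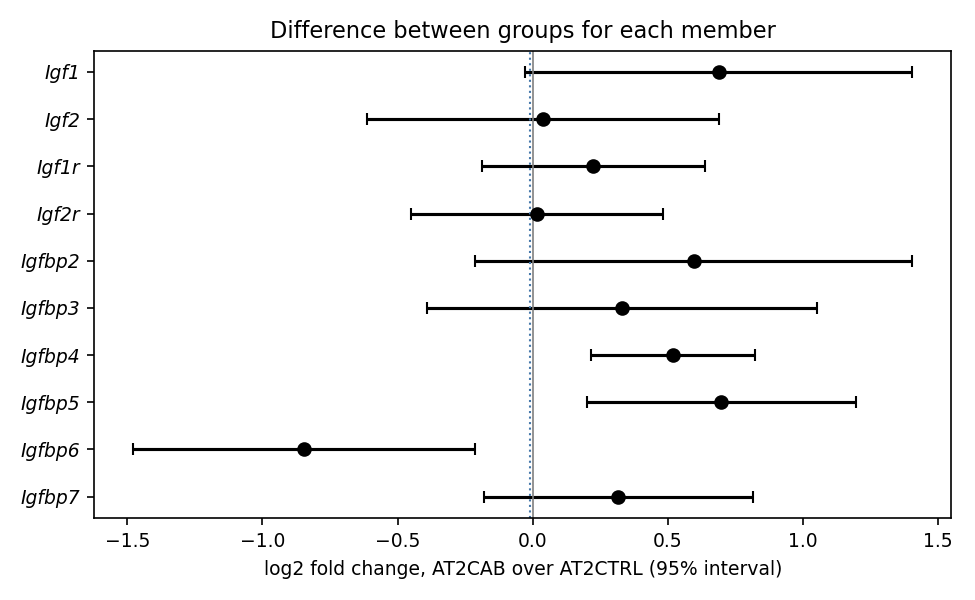
Log2 fold change of AT2CAB over AT2CTRL for each of the 10 genes from the edgeR fit, with its 95% interval as a bar, a solid line at 0 and a dotted line at the median of all tested genes (-0.0096). The intervals of *Igfbp4*, *Igfbp5* and *Igfbp6* do not cover 0 before adjustment for multiple tests, and those of the other 7 do.

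The ligand genes were the lowest of the 10, with *Igf1* at percentile 34.2 and *Igf2* at percentile 36.8 of mean CPM among the tested genes. *Igf1*, the main mediator of growth hormone action, lies on chromosome 10 of mm10 from 87859056 to 87937047. It was at 4.48, 3.60 and 2.44 CPM in AT2CTRL replicates 1 to 3 and at 6.01, 4.31 and 6.61 CPM in AT2CAB replicates 1 to 3, from 64 to 203 counts a library. AT2CAB replicate 2 lay below the highest AT2CTRL library, so the groups overlapped. The log2 fold change was 0.69 (SE 0.31, 95% interval -0.027 to 1.40, edgeR adjusted p = 0.530). *Igf2*, an imprinted growth factor gene that is most active before birth, lies on chromosome 7 from 142650768 to 142661035. Its values were 6.10, 6.13 and 4.42 CPM in AT2CTRL and 4.49, 4.77 and 7.78 CPM in AT2CAB. The highest and the lowest of these did not separate the groups, and the log2 fold change was 0.039 (SE 0.28, interval -0.61 to 0.69, edgeR adjusted p = 0.974). The *Igf2* value turned negative without AT2CAB replicate 3 (-0.22) or AT2CTRL replicate 3 (-0.11). Of the exon bases of *Igf2*, 98 are shared with *Igf2os*, where reads were not counted. The ratio of *Igf2* to *Igf1* in TPM was 2.51, 3.14 and 3.34 in AT2CTRL and 1.38, 2.04 and 2.17 in AT2CAB. This ratio was lower in every AT2CAB library, although neither ligand passed the test alone, and 3 against 3 libraries cannot give an exact p below 0.1.

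Neither receptor gene separated the groups. *Igf1r*, the signaling receptor, lies on chromosome 7 from 67952257 to 68233667. Its values were 22.0, 24.8 and 17.8 CPM in AT2CTRL and 20.3, 25.6 and 29.4 CPM in AT2CAB, with a log2 fold change of 0.22 (SE 0.18, interval -0.19 to 0.64, edgeR adjusted p = 0.714). This was 0.098 without AT2CTRL replicate 3, 0.38 without AT2CAB replicate 1 and 0.13 without AT2CAB replicate 3. *Igf2r*, the clearance receptor, lies on chromosome 17 from 12682406 to 12769706. It was at 134.4, 225.2 and 237.8 CPM in AT2CTRL and at 204.2, 204.9 and 194.8 CPM in AT2CAB. The AT2CAB libraries lay close together, inside the AT2CTRL range that AT2CTRL replicate 1 widened downward. The log2 fold change was 0.016 (SE 0.20, interval -0.45 to 0.48, edgeR adjusted p = 0.987) and -0.21 without AT2CTRL replicate 1.

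Among the binding proteins, *Igfbp4* had the smallest p of the 10 genes. IGFBP4 is mostly an inhibitor of IGF action and is cut by PAPPA. The gene lies on chromosome 11 from 99041260 to 99052643. It was at 15.7, 19.1 and 16.2 CPM in AT2CTRL and at 22.6, 25.3 and 25.1 CPM in AT2CAB. Every AT2CAB library was above every AT2CTRL library, with means of 24.3 ± 1.48 and 17.0 ± 1.85 CPM (SD, n = 3 each), a ratio of 1.43. The log2 fold change of 0.52 (SE 0.13, interval 0.22 to 0.82) had an unadjusted p of 0.00397 and an edgeR adjusted p of 0.262.

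*Igfbp5*, whose protein binds matrix as well as IGFs, lies on chromosome 1 from 72858065 to 72874865. Its values were 27.0, 36.7 and 21.2 CPM in AT2CTRL and 40.02, 41.5 and 55.9 CPM in AT2CAB. The AT2CAB values were again all above the AT2CTRL values, though AT2CTRL replicate 2 came close to the lowest of them. The means were 45.8 ± 8.77 and 28.3 ± 7.84 CPM, a ratio of 1.62, with a log2 fold change of 0.70 (SE 0.22, interval 0.20 to 1.19, edgeR unadjusted p = 0.0117, adjusted p = 0.367).

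*Igfbp6*, whose product prefers IGF2 over IGF1, was the gene of the 10 with a lower mean in AT2CAB. It lies on chromosome 15 from 102144186 to 102149512. It was at 114.6, 94.6 and 77.1 CPM in AT2CTRL and at 73.2, 53.7 and 32.6 CPM in AT2CAB. The highest AT2CAB library stayed just below the lowest AT2CTRL library. The AT2CTRL mean of 95.4 ± 18.8 CPM was 1.80 times the AT2CAB mean of 53.2 ± 20.3 CPM (SD, n = 3 each), and the log2 fold change was -0.85 (SE 0.28, interval -1.48 to -0.21, edgeR unadjusted p = 0.0147, adjusted p = 0.390). It was -0.55 without AT2CAB replicate 3, and -0.40 in the 4 libraries without Y-linked reads.

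The stretches of 250 bases before the RefSeq start sites of these 3 genes are shown because theirs were the groups that did not overlap, and because SMAD proteins, the effectors of BMP receptors, bind the short motifs searched for in them. Capitals mark the SMAD box, CAGAC or its reverse complement GTCTG, and the GC-rich motif GGCGCC was searched on both strands too. The windows are chr11:99040994-99041243 on the plus strand for *Igfbp4*, chr1:72874866-72875115 on the minus strand for *Igfbp5* and chr15:102143936-102144185 on the plus strand for *Igfbp6*, in RefSeq on GRCm38.p6, and are printed 5′ to 3′ in the direction of the gene.
Igfbp4: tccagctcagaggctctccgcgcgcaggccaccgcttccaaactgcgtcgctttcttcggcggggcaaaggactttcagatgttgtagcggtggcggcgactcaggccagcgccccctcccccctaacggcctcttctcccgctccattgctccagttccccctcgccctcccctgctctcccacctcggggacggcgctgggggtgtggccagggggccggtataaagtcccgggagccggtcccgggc
Igfbp5: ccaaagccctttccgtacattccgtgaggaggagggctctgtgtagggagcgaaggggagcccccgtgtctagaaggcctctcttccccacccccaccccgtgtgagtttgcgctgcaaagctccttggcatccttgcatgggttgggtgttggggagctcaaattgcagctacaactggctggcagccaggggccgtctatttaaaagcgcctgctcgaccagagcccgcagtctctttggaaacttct
Igfbp6: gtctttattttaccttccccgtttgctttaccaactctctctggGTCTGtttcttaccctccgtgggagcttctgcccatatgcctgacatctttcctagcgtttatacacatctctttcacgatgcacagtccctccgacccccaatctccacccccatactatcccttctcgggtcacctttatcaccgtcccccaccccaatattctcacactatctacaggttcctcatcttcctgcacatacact
*Igfbp6* has 1 SMAD box in its window, and *Igfbp4* and *Igfbp5* have 0. Of the other 7 genes, *Igf1r* has 1 and *Igf2* and *Igf2r* have 2 each. A SMAD box occurs in 42.2% of the 32851 promoter windows of the same length. GGCGCC occurs in 9.59% of them and, among the 10 genes, in the window of *Igf1* alone, whose RefSeq start lies 2055 bases from the start of the gene in the count table. The *Igfbp4* window is the richest of the 3 in G and C, at 69.2%, beside 58.8% for *Igfbp5* and 49.6% for *Igfbp6*. Such matches describe letters and not bound sites.

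*Igfbp2*, the AT1 gene of the set, lies on chromosome 1 from 72824480 to 72852471, with 5593 bases between it and *Igfbp5* on the opposite strand. Its values were 11.2, 17.1 and 14.0 CPM in AT2CTRL and 21.8, 31.6 and 10.6 CPM in AT2CAB. AT2CAB replicates 1 and 2 were above every AT2CTRL library, whereas AT2CAB replicate 3 was the lowest of the 6. The log2 fold change was 0.60 (SE 0.35, interval -0.21 to 1.40, edgeR adjusted p = 0.626). It was 0.96 without AT2CAB replicate 3 (edgeR adjusted p = 0.309) and 0.21 without AT2CAB replicate 2. *Igfbp5* had its highest AT2CAB value in replicate 3, where *Igfbp2* had its lowest. Of the AT1 markers, *Hopx* had 53.4, 95.9 and 54.2 CPM in AT2CTRL and 82.2, 128.4 and 55.9 CPM in AT2CAB, and *Pdpn* had 14.7, 15.9 and 10.9 CPM and 15.9, 23.7 and 11.2 CPM. Both were highest in AT2CAB replicate 2, like *Igfbp2*, and *Ager* was highest in AT2CTRL replicate 1 at 1995 CPM. The sum of the 9 AT1 markers was 2890 to 3758 CPM in AT2CTRL and 3208 to 3723 CPM in AT2CAB. *Ager* was the largest part of this sum in every library. Of the 9 markers, 0 passed the test and 7 were above 0 in log2 fold change, with a median of 0.19. The values ran from -0.53 for *Aqp5* to 0.84 for *Rtkn2*. How far AT1 transcripts bear on the *Igfbp2* values was not tested.

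*Igfbp3*, the main carrier of IGFs in plasma, lies on chromosome 11 from 7206091 to 7213923. Its values were 8.25, 17.0 and 10.97 CPM in AT2CTRL and 16.6, 19.2 and 9.80 CPM in AT2CAB, and the groups overlapped (log2 fold change 0.33, SE 0.31, interval -0.39 to 1.05, edgeR adjusted p = 0.759). Without AT2CTRL replicates 1 or 2 it was 0.12 or 0.65, and without AT2CAB replicates 2 or 3 it was 0.14 or 0.61. AT2CAB replicate 3 was the lowest library of its group for *Igfbp3* as for *Igfbp2*. *Igfbp7* lies on chromosome 5 from 77349240 to 77408045 and shares 89 exon bases with *Polr2b*, where reads were not counted. It was at 369.5, 274.3 and 221.0 CPM in AT2CTRL and at 282.2, 381.3 and 413.2 CPM in AT2CAB. AT2CTRL replicate 1 was above AT2CAB replicate 1, so the groups overlapped, and the log2 fold change was 0.32 (SE 0.22, interval -0.18 to 0.81, edgeR adjusted p = 0.668). It was 0.53 without AT2CTRL replicate 1, 0.15 without AT2CTRL replicate 3 and 0.49 without AT2CAB replicate 1.

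Binding proteins are known products of fibroblasts and vascular cells as well, and fewer or more cells of a type cannot be told apart from less or more RNA per cell in bulk samples. The 9 mesenchymal markers summed to 149.6 to 199.6 CPM in AT2CTRL and 239.4 to 297.5 CPM in AT2CAB, without overlap, and 9 of 9 had a higher mean in AT2CAB while 0 passed the test. Their median log2 fold change was 0.44. The groups did not overlap for 3 of the 9 markers (*Col1a1*, *Col1a2* and *Col3a1*), beside 7% of all genes tested. Among the binding proteins, the log2 fold change was 0.60 for *Igfbp2*, 0.33 for *Igfbp3*, 0.52 for *Igfbp4* and 0.70 for *Igfbp5*. It was 0.32 for *Igfbp7* and, with the opposite sign, -0.85 for *Igfbp6*. *Col1a1* had 25.7 to 31.8 CPM in AT2CTRL and 44.2 to 51.8 CPM in AT2CAB, *Col1a2* had 33.0 to 39.5 CPM and 51.0 to 61.9 CPM, and *Pdgfra* had 22.1 to 39.6 CPM and 31.8 to 48.0 CPM. None of *Col1a1*, *Col1a2* and *Pdgfra* was at or near 0. The 8 endothelial markers, among them *Pecam1*, *Cdh5* and *Kdr*, summed to 234.0 to 500.6 CPM in AT2CTRL and 438.0 to 715.5 CPM in AT2CAB, with 8 of 8 higher in the mean, 0 passing the test and a median log2 fold change of 0.62. The 9 leukocyte markers, headed by *Ptprc*, *Marco* and *Csf1r*, summed to 63.5 to 71.0 CPM and 59.1 to 129.7 CPM, highest in AT2CAB replicate 1. The 5 mesothelial markers, headed by *Msln*, *Wt1* and *Upk3b*, summed to 15.9 to 33.0 CPM and 26.3 to 63.8 CPM. Log2 fold changes were above 0 for 8 of the 9 leukocyte markers (median 0.71) and 5 of the 5 mesothelial markers (median 0.60). They were above 0 for 4 of the 6 tested airway markers (median 0.39). None of these passed the test. The part of these cells in the values of the binding proteins and of *Igf1* was not tested.

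The make-up of the binding protein transcripts was compared as each gene's share of the summed TPM of the 6 genes in a library. *Igfbp6* made up 21.3%, 21.9% and 22.3% in AT2CTRL and 17.2%, 10.2% and 6.33% in AT2CAB. The AT2CTRL shares lay within a narrow range (21.8% ± 0.494, SD, n = 3). The AT2CAB shares were all lower and spread wider (11.2% ± 5.50). Shares have a fixed total, so a higher *Igfbp7* by itself lowers the *Igfbp6* share. In TPM itself the *Igfbp6* groups overlapped, with 130.1 in AT2CAB replicate 1 and 129.0 in AT2CTRL replicate 3. *Igfbp7* made up 73.0%, 67.5% and 67.9% in AT2CTRL and 70.4%, 77.2% and 85.2% in AT2CAB, with overlap at AT2CTRL replicate 1. *Igfbp4* took from 1.82% to 2.92% in AT2CTRL and from 3.01% to 3.32% in AT2CAB, and the shares of *Igfbp2*, *Igfbp3* and *Igfbp5* stayed at or under 5.85% in every library. The ratio of *Igfbp7* to *Igfbp6* was 3.43, 3.08 and 3.05 in AT2CTRL and 4.10, 7.55 and 13.5 in AT2CAB. With 3 against 3 libraries no exact test of such a ratio can go below p = 0.1, and the ratios were chosen after the values of the genes were known.

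**Figure D3:**
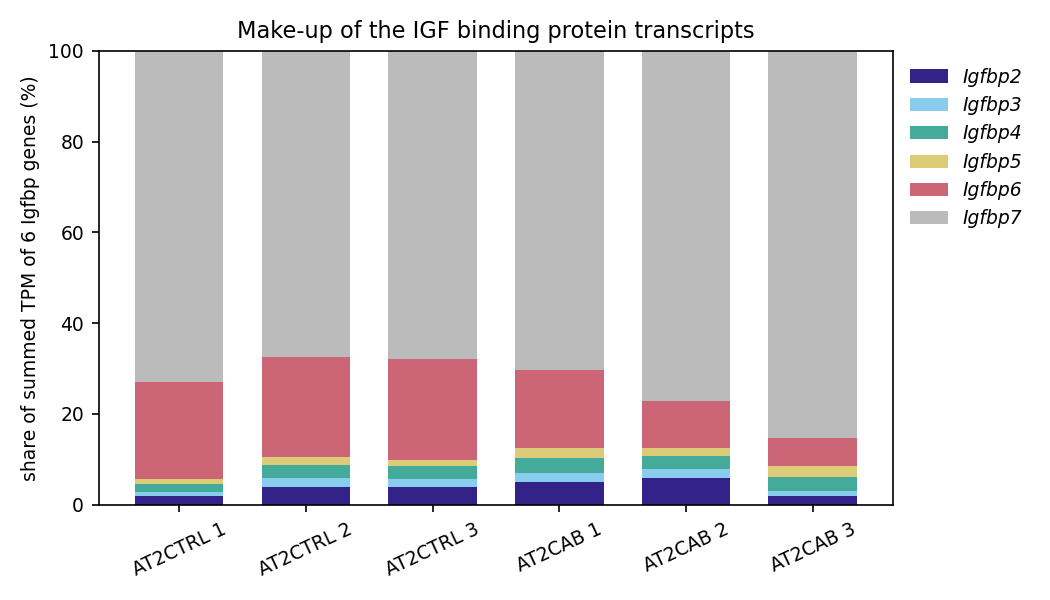
Share of each of the 6 binding protein genes in their summed TPM (percent, from 0 to 100), with 1 bar per library. *Igfbp7* fills at least 67.5% of every bar, and the *Igfbp6* segment is 21.3% to 22.3% in AT2CTRL and 6.33% to 17.2% in AT2CAB.

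The AT2CAB libraries differed among themselves in the level of the BMP targets, and the binding proteins were laid beside it. The summed CPM of the 7 targets was 337.0, 322.4 and 284.0 in AT2CTRL and 863.8, 1180 and 1897 in AT2CAB. *Id1*, *Id2*, *Id3*, *Smad7* and *Atoh8* rose from AT2CAB replicate 1 to 3. Not all targets shared this order: *Smad6* (105.3, 158.6 and 130.2 CPM) and *Smad9* (35.7, 48.1 and 42.6 CPM) were highest in replicate 2. *Igfbp6* was lowest in the AT2CAB library with the highest sum (32.6 CPM) and highest in that with the lowest sum (73.2 CPM). *Igfbp5* and *Igfbp7* had the reverse order over the same 3 libraries. *Igfbp5* was nearly level in replicates 1 and 2 (40.02 and 41.5 CPM), and *Igfbp4* differed little over all 3. *Igfbp2* and *Igfbp3* followed neither order, with their highest values in AT2CAB replicate 2 and their lowest in replicate 3. In AT2CTRL, where the target sums lay close together, *Igfbp6* went the other way, with its highest value (114.6 CPM) in the library with the highest sum and its lowest (77.1 CPM) in that with the lowest sum. *Igfbp7* was ordered with the sum in AT2CTRL too, from 221.0 to 369.5 CPM. *Igfbp5* was not, at 27.0, 36.7 and 21.2 CPM in AT2CTRL replicates 1 to 3. Other lists were also lined up, upward or downward, with the target sum over AT2CAB replicates 1 to 3. The sum of 4 markers of the alveolar transition state, headed by *Krt8*, *Cldn4* and *Sfn*, was 362.9, 385.5 and 772.3 CPM (384.0 to 496.1 CPM in AT2CTRL), that of the mesothelial markers 26.3, 32.6 and 63.8 CPM, and that of the leukocyte markers 129.7, 84.6 and 59.1 CPM. That of the AT2 markers was 93763, 88614 and 88238 CPM, with replicates 2 and 3 close together. AT2CAB replicate 3 is also one of the libraries with Y-linked reads. The part of these in the order was not tested, and the order over 3 libraries is given as a description, with no test.

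**Figure D4:**
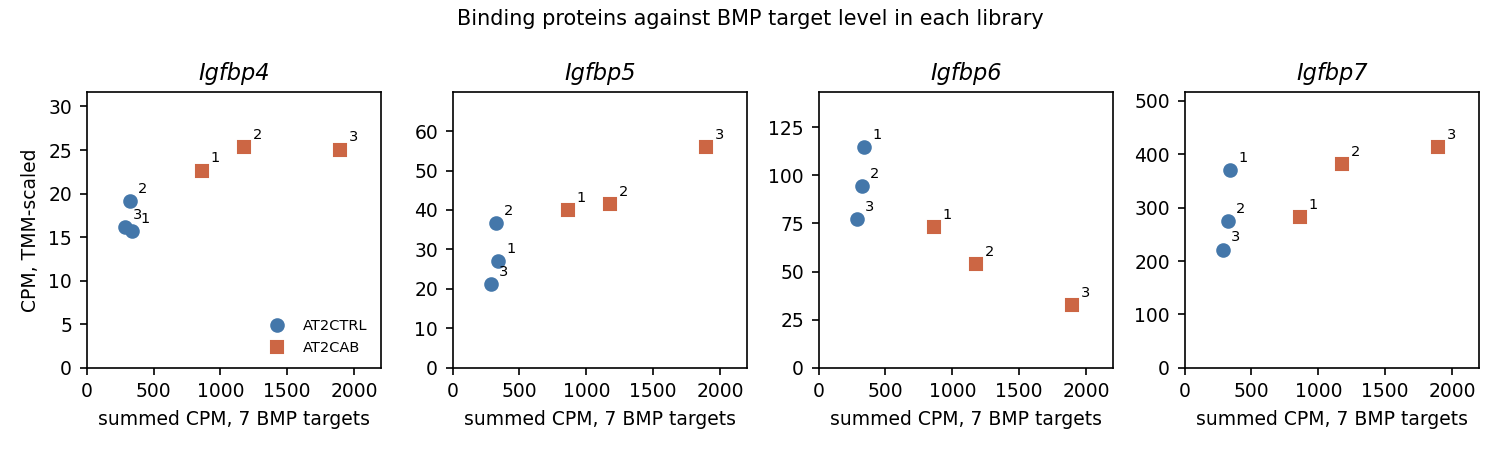
CPM of *Igfbp4*, *Igfbp5*, *Igfbp6* and *Igfbp7* in each library (vertical axes, from 0) against the summed CPM of 7 BMP targets in that library (horizontal axes), with circles for AT2CTRL, squares for AT2CAB and the replicate number beside each point. Within AT2CAB, *Igfbp6* is lower and *Igfbp5* and *Igfbp7* are higher where the target sum is higher. Within AT2CTRL *Igfbp6* and *Igfbp7* are higher where the sum is higher, and *Igfbp5* does not follow the sum. The targets *Smad6* and *Smad9* do not share the order of the sum within AT2CAB.

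The rest of the pathway was described from a list of 40 genes, of which 37 were tested. None passed, 0 higher and 0 lower, with 19 log2 fold changes above 0 and 18 below and a median of 0.00084. By role, the 11 tested family members, carriers and proteases had a median of 0.36, the 5 receptor substrates and adaptors -0.26, the 18 genes of the kinase cascade -0.010 and the 3 genes whose proteins bind the *Igf2* mRNA 0.024. Among the family members, carriers and proteases, the 7 genes above 0 had only 3 to 182 counts a library. The 4 below 0 included the better counted *Insr* (-0.25), *Htra1* (-0.023) and *Ghr* (-0.023). The insulin receptor gene *Insr* had a mean of 28.0 TPM in AT2CTRL and 26.1 TPM in AT2CAB, well above *Igf1r* in each group. The substrate gene *Irs2* stood higher than *Insr* in each group, at 175.4 TPM in AT2CTRL and 161.9 TPM in AT2CAB. The gene of smallest p was *Grb14*, an adaptor that dampens insulin receptor signaling. It was at 221.1, 270.4 and 310.0 CPM in AT2CTRL and at 216.6, 145.5 and 172.4 CPM in AT2CAB. Every AT2CAB library was below every AT2CTRL library, by a narrow gap, as for 10.1% of all genes tested. In TPM the *Grb14* groups overlapped, with 252.6 in AT2CAB replicate 1 and 220.3 in AT2CTRL replicate 1. The *Grb14* log2 fold change was -0.58 (SE 0.18, edgeR unadjusted p = 0.0124, adjusted p = 0.368). *Pappa2*, a protease that cuts IGFBP5 and IGFBP3, was at 0.942, 1.24 and 0.800 CPM in AT2CTRL and at 2.15, 1.16 and 4.003 CPM in AT2CAB (log2 fold change 1.30, SE 0.54, edgeR adjusted p = 0.495). It rested on 21 to 123 counts a library, and the groups overlapped. *Pik3ca*, a catalytic subunit of PI3 kinase, was at 167.5, 213.4 and 202.6 CPM in AT2CTRL and at 168.7, 150.5 and 156.0 CPM in AT2CAB (log2 fold change -0.30, SE 0.13, edgeR adjusted p = 0.516).

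**Figure D5:**
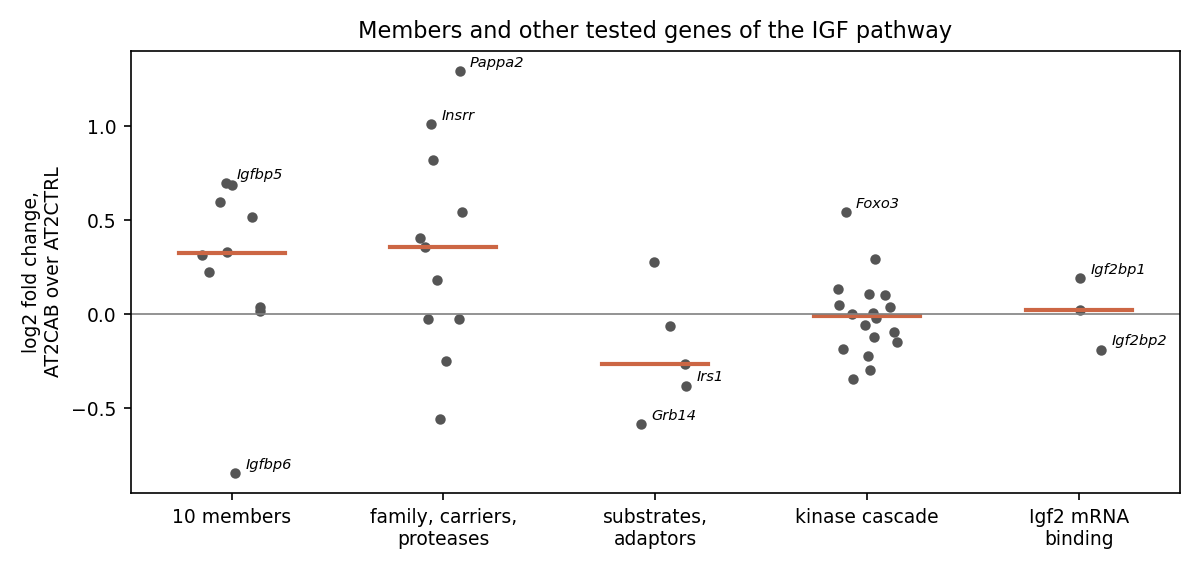
Log2 fold change of AT2CAB over AT2CTRL for the 10 IGF genes and the 37 other tested pathway genes by role, with 1 point per gene and a bar at each median. The medians are 0.32 for the 10 genes, 0.36 for family members and proteases and -0.26 for substrates and adaptors. They are -0.010 for the kinase cascade and 0.024 for the *Igf2* mRNA binding genes. Family members and proteases above 0 have 3 to 182 counts a library. No gene shown passed the test.

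The genes whose pattern over the 6 libraries was most like that of *Igfbp4* were found by the root mean square difference of log2 CPM, each gene centered on its own mean. They were *Smox*, an enzyme of polyamine breakdown (0.0588), *Slc7a7*, an amino acid transporter subunit (0.0595), *C1ra*, a complement protease (0.0686), *Pla2r1*, a phospholipase receptor (0.0692), and *Pdgfb*, a growth factor for pericytes and fibroblasts (0.0706). The SD of *Igfbp4* on the same scale was 0.306. The 5 genes had log2 fold changes of 0.47 to 0.58, and none passed the test, with edgeR adjusted p from 0.211 to 0.478.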

How the data were processed

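Poly(A) RNA of FACS-sorted, lineage-labeled AT2 cells was sequenced from 3 libraries per group. The authors deposited raw read counts per gene, made by trimming, Hisat2 alignment to mm10, removal of duplicate reads and featureCounts 1.5.3 without strand. Reads on overlapping genes were dropped, and mates appear to be counted separately, so a pair can count as 2. Groups and replicate numbers came from the sample labels, and the labels do not say whether each library is 1 mouse. P-values measure the spread between these libraries.

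The fit used R 4.3.3 and edgeR 4.0.16, with TMM scaling, filterByExpr at 10 counts, the quasi-likelihood F test and Benjamini-Hochberg adjusted p-values. It was tested on simulated data with changes larger than those of the 10 genes, which does not gauge its power for smaller ones. Calls were at an adjusted p under 0.05. The SE is the log2 fold change divided by the root of F. DESeq2 1.42.0, the tool the methods name, and limma-voom (limma 3.58.1) were alternatives, with other scalings, filters, covariates and subsets. TPM used the table's exon lengths. At these depths 3 counts equal 0.0976 to 0.138 CPM. The 10 genes and all lists were chosen with earlier results of these data known. Named genes were the 10, the 3 pathway genes of smallest p, the first 3 markers of each list and the 5 profiles nearest to that of *Igfbp4*, and other genes named were chosen after their values were seen. RefSeq promoters matched all 10 genes.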

Additional observations from a re-analysis of the deposited data

How the results depend on the processing

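None of the 10 genes and none of the 37 other pathway genes passed the test under any alternative run. *Igfbp2*, *Igfbp3*, *Igfbp4*, *Igfbp5*, *Igfbp6*, *Igfbp7*, *Igf1* and *Igf1r* kept the sign of their log2 fold change in all 17 alternatives, with 0.46 to 0.65 for *Igfbp4* (adjusted p 0.0686 to 0.781), 0.52 to 0.92 for *Igfbp5* (0.103 to 0.794), -1.11 to -0.40 for *Igfbp6* (0.111 to 0.781), 0.21 to 0.96 for *Igfbp2*, 0.12 to 0.65 for *Igfbp3*, 0.15 to 0.53 for *Igfbp7*, 0.48 to 0.90 for *Igf1* and 0.098 to 0.38 for *Igf1r*. *Igf2* turned to -0.11 without AT2CTRL replicate 3, -0.22 without AT2CAB replicate 3 and -0.15 in the 4 libraries without Y-linked reads. *Igf2r* turned to -0.0029 with no filter, -0.21 without AT2CTRL replicate 1 and -0.15 in the 4 libraries, and reached 0.16 without AT2CTRL replicate 3. Over all genes, the 40 called higher and 2 called lower became 62 and 5 with no filter, 198 and 88 with DESeq2, 73 and 40 in the 4 libraries and 213 and 210 with Y-linked reads as a covariate. The number called lower was 1 with upper-quartile scaling, library size only, limma-voom and age as a covariate. With the replicate number as a block, 36 were called higher and 5 lower, and *Igfbp6* had -0.90 (adjusted p 0.164). The deviations of same-numbered libraries correlated at -0.24, 0.20 and -0.53. With 3 libraries a group and both signs, these values cannot decide whether same-numbered libraries belong together. The main test did not pair them. Leaving out 1 library at a time gave 6 to 59 called higher and 0 to 4 called lower. Called higher and lower were 12 and 1 without AT2CTRL replicate 1, 6 and 0 without replicate 2 and 7 and 0 without replicate 3, then 59 and 4, 8 and 0, and 25 and 2 without AT2CAB replicates 1, 2 and 3. The causes were not tested. Scaling by library size only moved the median of all genes to 0.12. Depth limits *Igf1* and *Igf2* most, with 64 to 239 counts a library.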

Other observations

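In the pathway list, 3 genes were too low to be tested. *Igfbp1*, the neighbor of *Igfbp3* on chromosome 11 and mainly a liver product, had 2, 0 and 4 counts in AT2CTRL and 0 in each AT2CAB library. *Irs4*, a substrate gene, had 0 to 7 counts a library, and the insulin gene *Ins2* had 0 in all 6.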
